A study of Mus musculus with 4 samples.

Results

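The genes described here are Acp5, Pla2g2d, Dnase1l3, Gpnmb, Cst7, Hebp1, Lrp8, Ass1 and Gpm6b, 9 of the 32285 features counted in each library. They were chosen because earlier results of these data placed them beside Il22ra2 in phagocytes of colonic lymphoid tissue, so their higher level there is a description and carries no test. Single-cell RNA libraries of the mouse colon were compared at steady state, 1 library per group. The Csf2-/- mice lack the cytokine CSF2 (GM-CSF), and the Csf2+/+ mice carry it. From each genotype there was 1 library of solitary isolated lymphoid tissue (SILT, the small lymphoid clusters of the colon wall) and 1 of the colon lamina propria (LP). Mice of all 4 groups were heterozygous for the CX3CR1-GFP and CCR2-RFP reporter alleles, received no treatment according to the labels, and gave cells enriched by CD11b positive selection. The design text names 5 mice and does not say how many went into a library, and the sources used here do not state their age. With 1 library per group there is no replicate check. Every interval below is an exact 95% counting interval, which covers counting error only, and no p-value is given.

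Phagocytes digest what they engulf in lysosomes, and several of the genes belong to that work. Acp5 encodes tartrate-resistant acid phosphatase, Dnase1l3 a secreted nuclease that cleaves DNA in chromatin and microparticles, and Pla2g2d a secreted phospholipase A2 made by myeloid cells of lymphoid organs. Gpnmb is a glycoprotein of lysosomes and the cell surface, Cst7 (cystatin F) is an inhibitor that controls cathepsins, and Hebp1 binds haem. Lrp8 (APOER2) is a receptor of the LDL-receptor family for reelin and selenoprotein P, Ass1 makes argininosuccinate in arginine synthesis, and Gpm6b is a proteolipid-family membrane protein best known from the nervous system. Il22ra2 encodes the secreted IL-22 binding protein, which blocks IL-22.

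The loci lie apart in the genome (GENCODE vM21 on GRCm38, 1-based). Acp5 (ENSMUSG00000001348) is at chr9:22126727-22135711 on the minus strand, Pla2g2d (ENSMUSG00000041202) at chr4:138775735-138782046 on the plus strand, and Dnase1l3 (ENSMUSG00000025279) at chr14:7964533-7994573 on the minus strand. Gpnmb (ENSMUSG00000029816) is at chr6:49036546-49070929 on the plus strand, Cst7 (ENSMUSG00000068129) at chr2:150570415-150578944 on the plus strand, and Hebp1 (ENSMUSG00000042770) at chr6:135137522-135198022 on the minus strand. Lrp8 (ENSMUSG00000028613) is at chr4:107802261-107876840, Ass1 (ENSMUSG00000076441) at chr2:31470207-31520672 and Gpm6b (ENSMUSG00000031342) at chrX:166238911-166388988, all on the plus strand. The annotated spans of Acp5, Hebp1 and Lrp8 overlap other genes, among them antisense transcripts for each, and the sources used here do not state whether counting used strand, so part of their counts could belong to those neighbours.

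The 250 bases upstream of Cst7 are shown because Cst7 separated the Il22ra2-high barcodes most sharply from macrophages, as the values after it show. The window is chr2:150570165-150570414 (plus strand, RefSeq table, GRCm38.p6), ending at the base before the annotated start, and the capitals mark GGAAGT, a core of the ETS family of transcription factors.
Cst7 upstream: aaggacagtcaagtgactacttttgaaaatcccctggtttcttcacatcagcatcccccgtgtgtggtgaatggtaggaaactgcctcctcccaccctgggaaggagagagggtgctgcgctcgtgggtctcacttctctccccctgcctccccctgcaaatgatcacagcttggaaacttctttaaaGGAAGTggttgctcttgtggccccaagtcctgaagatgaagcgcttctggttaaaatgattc
The motif begins 62 bases before the annotated start and was chosen after the members were known. Searched on both strands (the other strand reads ACTTCC), it was present in 2 of the 12 windows that matched 8 of the 9 genes, those of Acp5 and Cst7, and in 19.7% of all 32851 windows of the table. A match is a description of these letters, not a binding site.

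Filtering (200 detected genes or more, mitochondrial UMIs up to 10%, no called doublet) left 2368 barcodes in Csf2-/- SILT, 7578 in Csf2+/+ SILT, 1967 in Csf2-/- LP and 4439 in Csf2+/+ LP. The deposited libraries held 19225644 to 67656927 UMIs, and pairs of libraries shared 3 to 19 barcodes. The targeted gene Csf2 had 0 UMIs in both Csf2-/- libraries, 24 UMIs in 11 barcodes of Csf2+/+ SILT and 2 UMIs in Csf2+/+ LP. At these counts the Csf2-/- libraries allow up to 0.145 CPM (SILT) and 0.16 CPM (LP) at a floor of 3 counts, against 0.371 and 0.0415 CPM in the Csf2+/+ libraries. The mice of the groups differed in sex makeup: in Il22ra2-high barcodes Xist stood at 329 CPM in Csf2-/- SILT and 47.1 CPM in Csf2+/+ SILT, and Ddx3y at 15.6 and 29.7 CPM.

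Il22ra2-high barcodes were those with Il22ra2 at 500 CPM (UMI counts scaled to an equal total per class or barcode) or more. There were 126 in Csf2-/- SILT, 5.32% of its barcodes (4.45 to 6.30), and 838 in Csf2+/+ SILT, 11.1% (10.4 to 11.8). LP held 3 in the Csf2-/- library and 5 in the Csf2+/+ library, too few for levels. These barcodes were shallow, with medians of 1341 UMIs in Csf2-/- SILT and 1276 UMIs in Csf2+/+ SILT, so that 1 Il22ra2 UMI could pass a barcode, as it did for 23 and 139 of them. Thinned to 500 UMIs each, 4.14% of Csf2-/- SILT barcodes and 8.63% of Csf2+/+ SILT barcodes were Il22ra2-high. Just inside the gate, from 500 to 1000 CPM, lay 12 barcodes of Csf2-/- SILT and 104 of Csf2+/+ SILT, where Acp5 stood at 397 and 949 CPM and Cst7 at 75.6 and 200.3 CPM. Just outside it, from 250 to 500 CPM, lay 5 and 70 barcodes, with Acp5 at 148 and 470 CPM and Cst7 at 0 and 33.0 CPM.

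Clustering that used neither Il22ra2 nor any of the 9 genes placed 98 of the 126 Il22ra2-high barcodes of Csf2-/- SILT and 683 of the 838 of Csf2+/+ SILT in a pair of clusters, called the Il22ra2 clusters. The larger, cluster 4, held 139 and 959 barcodes of these libraries with medians of 1097 and 1077 UMIs. The smaller, cluster 28, held 5 and 48 barcodes with medians of 23575 and 17042.5 UMIs. Cluster 4 reached the count of 3 macrophage markers, but the naming rule left it unnamed. It was shallow, and no macrophage marker was among its leading genes. The sums that follow pool it with cluster 28, which met that rule as a macrophage cluster. Cluster 28 gave 162642 UMIs beside 183976 from cluster 4 in Csf2-/- SILT, and 924745 beside 1235430 in Csf2+/+ SILT. The label of a phagocyte therefore rests on pooled sums and was not tested for cluster 4 alone. In the Il22ra2 clusters together, C1qa (a complement gene of macrophages) stood at 5848 CPM in Csf2-/- SILT and 5486 CPM in Csf2+/+ SILT, beside 6344 and 6430 CPM in macrophages. All 11 listed macrophage markers were detected, with sums of 15966 and 14529 CPM, beside 22152 and 22985 CPM in macrophages. Adgre1 (F4/80) was at 37.5 and 28.2 CPM, beside 530 and 422 CPM, and Itgam, the CD11b gene of the enrichment, at 80.8 and 78.7 CPM, beside 282 and 275 CPM. The dendritic markers summed to 162 and 139 CPM, and Flt3, a defining one, to 0 and 2.80 CPM. The clusters thus held the complement genes of a macrophage with low F4/80 and low CD11b message.

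Reference classes came from the same clustering, named by fixed markers and kept under the Il22ra2 gate. Barcodes of the Il22ra2 clusters were left out of them, although cluster 28 met the marker rule for macrophages. Under the gate, cluster 28 held 2 barcodes in Csf2-/- SILT and 21 in Csf2+/+ SILT. In those 21, Acp5 stood at 2213 CPM, Cst7 at 271 CPM, Lrp8 at 187 CPM and Gpm6b at 277 CPM. Macrophage-like barcodes, called macrophages here, carried C1qa, C1qb and C1qc and numbered 406 in Csf2-/- SILT, 990 in Csf2+/+ SILT, 287 in Csf2-/- LP and 950 in Csf2+/+ LP. Dendritic-like barcodes numbered 283, 607, 329 and 421 in the same order. Endothelial-like barcodes (287, 1467, 255 and 785) are given beside them as a class outside the leukocytes.

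All 9 genes stood at least 2-fold higher in Il22ra2-high barcodes than in macrophages in both SILT libraries, where 8.49% of 8491 features compared in Csf2-/- SILT and 7.79% of 8263 in Csf2+/+ SILT did so. The genes were chosen for this, so nothing is read from the count. The same 9 of 9 stood at least 2-fold higher than in dendritic cells, against 10.7% and 8.27% of features. What the choice did not fix is how far each gene reaches outside the Il22ra2-high barcodes, and there the 9 differed.

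**Figure D1:**
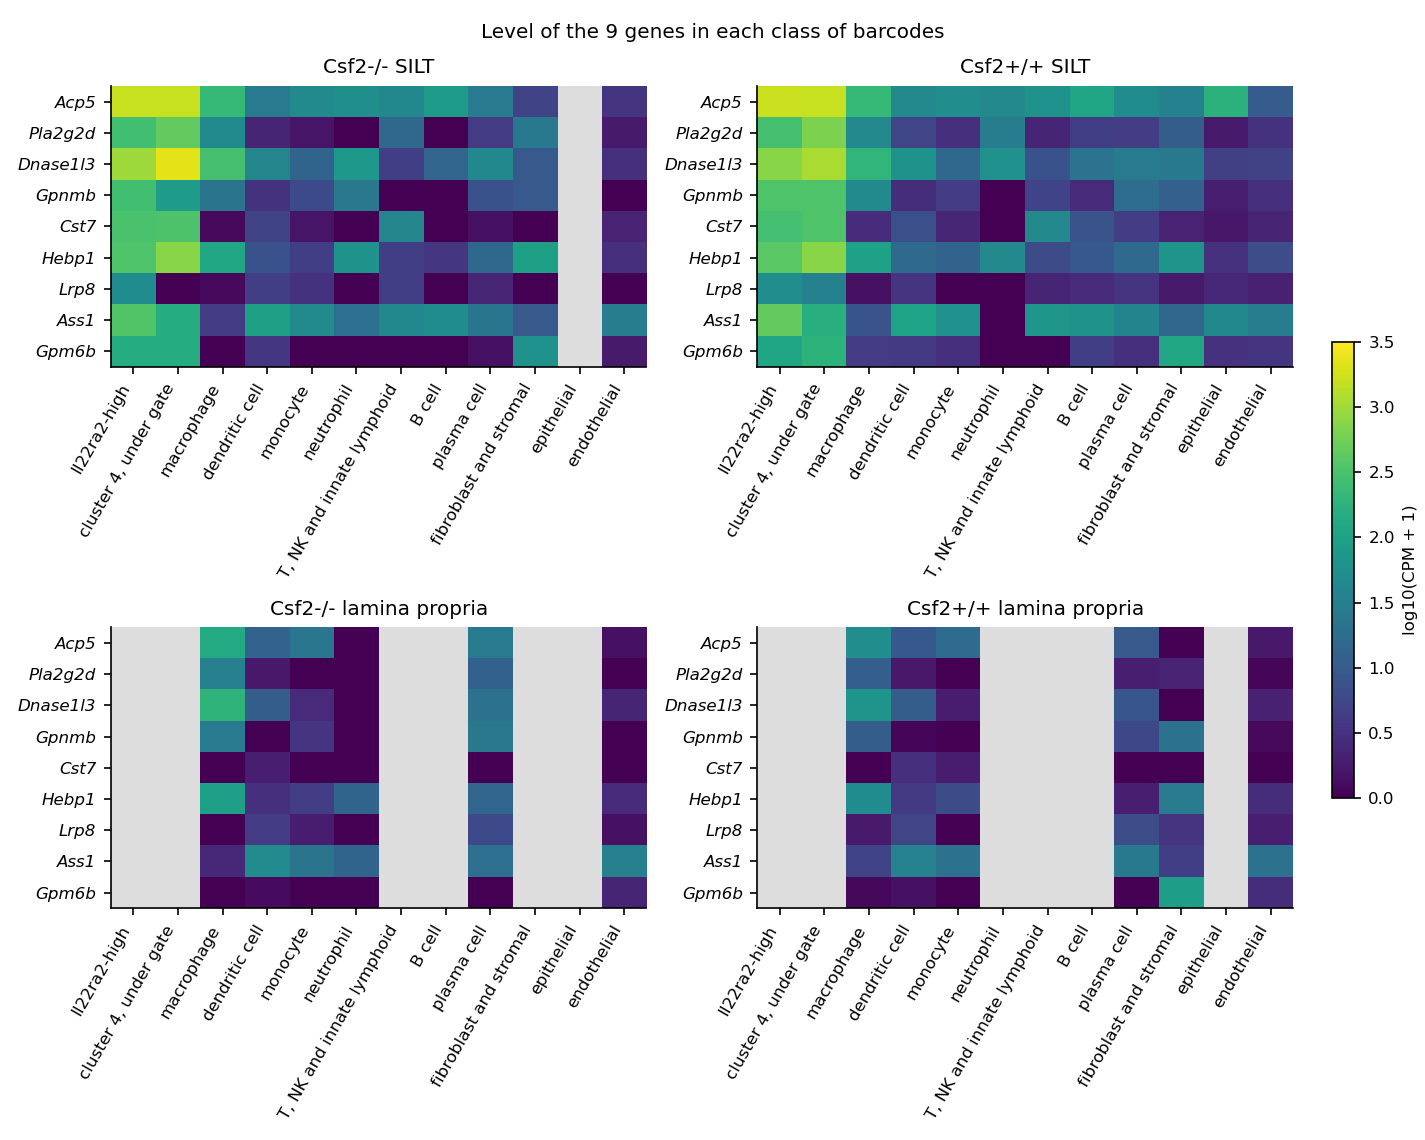
Level of the 9 genes (rows) in each cell class (columns) of the 4 libraries (panels), as the colour of log10(CPM + 1). Grey marks classes that are absent or hold fewer than 20 barcodes. The Il22ra2-high columns are filled in SILT alone, and Acp5, Dnase1l3 and Hebp1 extend into the macrophage columns while Cst7, Lrp8 and Gpm6b do not.

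Among the lysosomal and secreted enzymes, Acp5 stood at 1630 CPM (1514 to 1752) in Il22ra2-high barcodes of Csf2-/- SILT and 1662 CPM (1610 to 1716) in those of Csf2+/+ SILT. Macrophages of these libraries had 217 and 219 CPM, dendritic cells 26.5 and 42.8 CPM, and endothelial cells 2.37 and 9.57 CPM. The ratio to macrophages was 7.50 (6.79 to 8.27) in Csf2-/- SILT and 7.61 (7.20 to 8.03) in Csf2+/+ SILT. Over all macrophages, Acp5 was thus present in both genotypes and ran several-fold higher again in the Il22ra2-high barcodes. The macrophage level lay mostly in 1 of the macrophage clusters described below. Acp5 stood at 355 and 453 CPM in cluster 10 of Csf2-/- and Csf2+/+ SILT. In cluster 1 it stood at 25.3 and 37.3 CPM, not above the dendritic level. Acp5 reached 79.4% of the 126 and 82.0% of the 838 Il22ra2-high barcodes as at least 1 UMI. Outside phagocytes it was also present in epithelial barcodes of Csf2+/+ SILT (176 CPM, 126 barcodes) and in B cells (79.8 CPM in Csf2-/- SILT and 114 CPM in Csf2+/+ SILT).

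Dnase1l3 followed the same order. Its level was 955 CPM (867 to 1050) in Il22ra2-high barcodes of Csf2-/- SILT and 756 CPM (721 to 792) in those of Csf2+/+ SILT, beside 291 and 200 CPM in macrophages and 37.6 and 62.4 CPM in dendritic cells. The ratio to macrophages was 3.28 (2.93 to 3.66) and 3.78 (3.54 to 4.04). Hebp1, the haem-binding protein, stood at 341 CPM (289 to 399) and 407 CPM (381 to 434) in Il22ra2-high barcodes of Csf2-/- and Csf2+/+ SILT, beside 126 and 100.1 CPM in macrophages and 6.69 and 14.6 CPM in dendritic cells. Its ratio to macrophages was 2.71 (2.25 to 3.25) and 4.06 (3.71 to 4.45). Dnase1l3 and Hebp1 were the genes closest to the macrophage level. For both, the order from Il22ra2-high barcodes through all macrophages to dendritic cells was the same in each SILT library. In macrophage cluster 1 alone, Dnase1l3 stood at 51.7 CPM in Csf2-/- SILT and 32.5 CPM in Csf2+/+ SILT. The latter lay under the dendritic level. Hebp1 there stood at 61.2 and 54.0 CPM. Hebp1 was also present in fibroblast-like barcodes, at 97.3 CPM in Csf2-/- SILT and 64.6 CPM in Csf2+/+ SILT.

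Pla2g2d, the secreted phospholipase, stood at 278 CPM (232 to 332) and 288 CPM (267 to 311) in Il22ra2-high barcodes of Csf2-/- and Csf2+/+ SILT, beside 45.5 and 43.6 CPM in macrophages. Gpnmb stood at 272 CPM (226 to 324) and 344 CPM (320 to 369), beside 21.4 and 44.2 CPM. In dendritic cells Pla2g2d was at 1.27 and 4.46 CPM and Gpnmb at 2.23 and 1.85 CPM, close to the endothelial levels of 0.790 and 2.30 CPM for Pla2g2d and of 0 and 1.93 CPM for Gpnmb. Both genes therefore reached macrophages, and in dendritic cells they lay near the endothelial level.

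Cst7 was different. Il22ra2-high barcodes held 139 UMIs in Csf2-/- SILT, a level of 309 CPM (260 to 365), and 659 UMIs in Csf2+/+ SILT, a level of 288 CPM (266 to 310). The macrophages of Csf2-/- SILT held 1 UMI in 406 barcodes (0.235 CPM), and those of Csf2+/+ SILT 17 UMIs in 990 barcodes (1.82 CPM). The 21 under-gate barcodes of cluster 28 in Csf2+/+ SILT, not counted as macrophages, held 91 Cst7 UMIs. The endothelial level was 1.18 CPM in Csf2-/- SILT and 1.29 CPM in Csf2+/+ SILT, over the macrophage level in the Csf2-/- library and near it in the Csf2+/+ library, and the part of free RNA was not tested. Dendritic cells held 4.14 CPM in Csf2-/- SILT and 6.15 CPM in Csf2+/+ SILT. In LP macrophages Cst7 had 0 UMIs in both genotypes, which allows up to 1.40 CPM in Csf2-/- LP and 0.315 CPM in Csf2+/+ LP (exact upper limits). The ratio to macrophages in Csf2+/+ SILT was 158 (97.7 to 272), and in Csf2-/- SILT 139 UMIs against 1 gave 1318 (233 to 52435). Another class with Cst7 was the T, NK and innate lymphoid cells, where cystatin F is also known, at 38.2 CPM in Csf2-/- SILT (44 barcodes) and 43.8 CPM in Csf2+/+ SILT (142 barcodes).

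The receptor Lrp8 had few counts. Il22ra2-high barcodes held 22 UMIs in 7 barcodes of Csf2-/- SILT (49.0 CPM, 30.7 to 74.2) and 116 UMIs in 47 barcodes of Csf2+/+ SILT (50.6 CPM, 41.8 to 60.7), and macrophages held 1 and 4 UMIs. Dendritic cells had 3.51 CPM in Csf2-/- SILT, 2.46 CPM in Csf2+/+ SILT, and 3.23 CPM in Csf2-/- LP and 4.42 CPM in Csf2+/+ LP. Gpm6b stood at 147 CPM (114 to 187) in Il22ra2-high barcodes of Csf2-/- SILT and 114 CPM (101 to 129) in those of Csf2+/+ SILT. Macrophages of Csf2-/- SILT had 0 Gpm6b UMIs, so the level in Il22ra2-high barcodes was at least 209-fold higher at a floor of 3 counts over the class, and those of Csf2+/+ SILT had 3.005 CPM, near the endothelial 2.48 CPM. Unlike Cst7, Gpm6b was also present in cells outside the leukocytes. It stood at 59.2 CPM in 26 fibroblast-like barcodes of Csf2-/- SILT and at 121 CPM in 243 of Csf2+/+ SILT.

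Ass1, the arginine-synthesis enzyme, was the gene that dendritic cells shared. Its level was 358 CPM (305 to 418) in Il22ra2-high barcodes of Csf2-/- SILT and 455 CPM (428 to 483) in those of Csf2+/+ SILT. Dendritic cells had 95.6 and 107 CPM, monocytes 47.0 and 56.2 CPM, endothelial cells 29.2 and 29.1 CPM, and macrophages 3.05 and 7.19 CPM. The ratio to dendritic cells was 3.75 (3.08 to 4.56) and 4.25 (3.86 to 4.68), whereas that to macrophages was 117 (66.8 to 225) and 63.2 (49.4 to 82.2). Over all macrophages, the order of dendritic cells and macrophages for Ass1 was the reverse of that for Acp5, Dnase1l3 and Hebp1 in both SILT libraries. In macrophage cluster 1 alone, Acp5 was not above the dendritic level in either library, nor was Dnase1l3 in Csf2+/+ SILT.

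**Figure D2:**
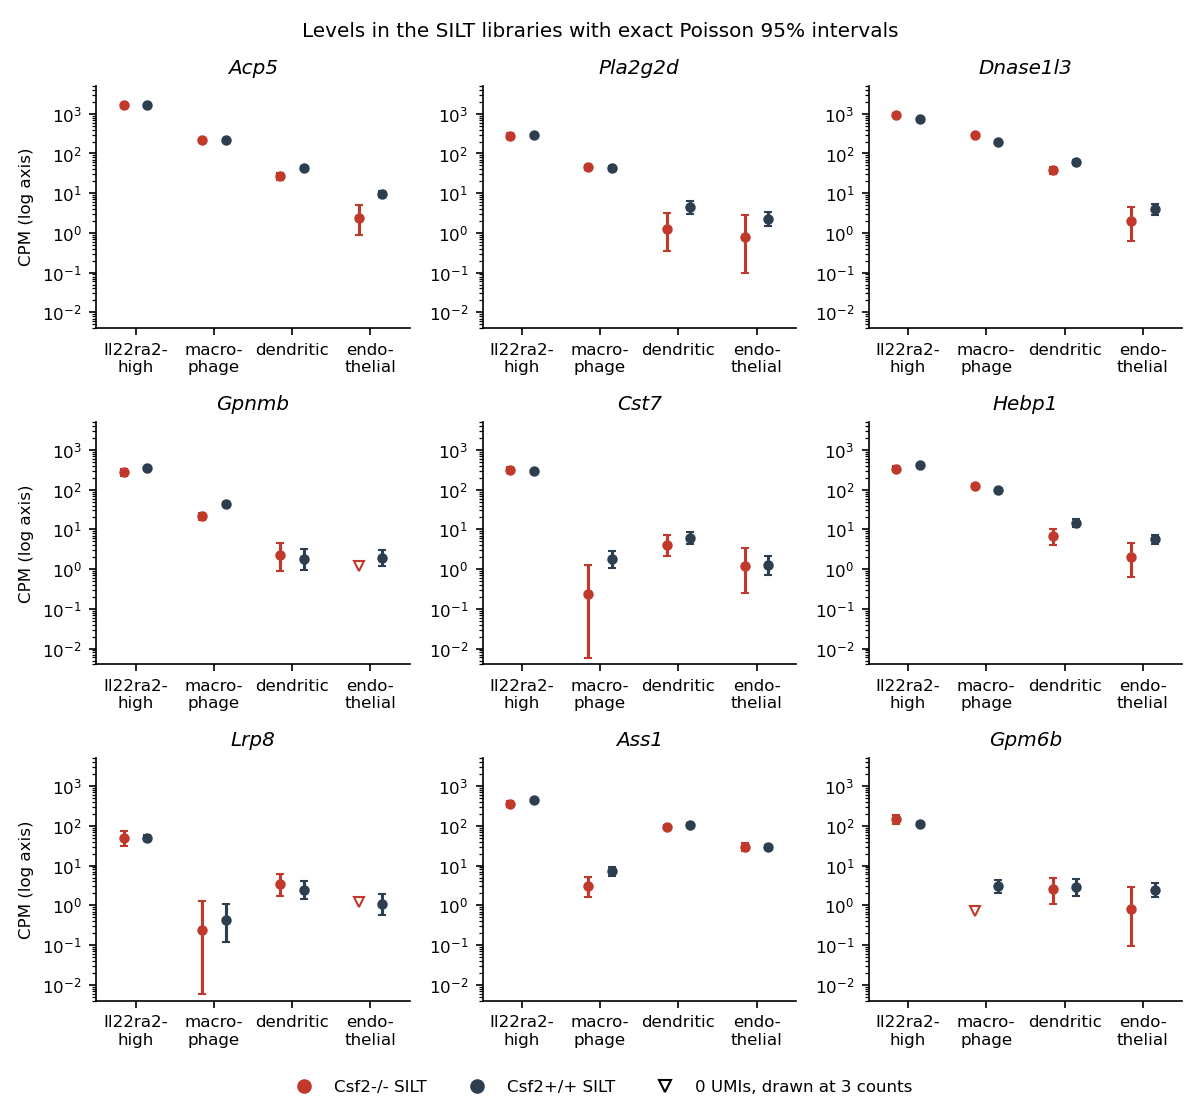
Level of each gene (log axis, CPM) in Il22ra2-high barcodes, macrophages, dendritic cells and endothelial cells of Csf2-/- SILT and Csf2+/+ SILT; points are class sums, bars are exact 95% Poisson intervals for counting error, and open triangles mark 0 UMIs, drawn at 3 counts. Of the 4 classes, Il22ra2-high barcodes lie highest for all 9 genes, and the dendritic points lie over the macrophage points for Ass1, Cst7 and Lrp8.

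The Il22ra2-high barcodes were not one population for these genes. In Csf2+/+ SILT, 74 of the 838 lay in dendritic clusters, mostly a proliferating one (Top2a, Mki67) and one led by Ccl22 and Ccr7. Set against the 683 Il22ra2-high barcodes of the Il22ra2 clusters, 8 of the 9 genes stood at least 2-fold lower in these 74, where 9.94% of features did. Acp5 was at 653 CPM in the 74 and 2252 CPM in the 683, a ratio of 0.290 (0.258 to 0.325). Gpnmb was furthest apart, at 28.5 and 487 CPM, a ratio of 0.0585 (0.0318 to 0.0987). Ass1 was the exception, at 512 and 461 CPM with a ratio of 1.11 (0.957 to 1.28).

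Against dendritic barcodes under the gate, those 74 held more of all 9 genes, by at least 2-fold each where 7.62% of features did. Acp5 was 15.3-fold higher (13.0 to 18.0), Gpm6b 20.2-fold (10.9 to 38.1) and Ass1 4.79-fold (4.13 to 5.54). Their median depth was 1756 UMIs, against 10302 UMIs in dendritic barcodes under the gate. Free RNA weighs more in a shallow barcode, and its part in these levels was not tested.

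A further 42 Il22ra2-high barcodes of Csf2+/+ SILT lay in cluster 20, an unnamed cluster led by haemoglobin genes. There Ass1 reached 900 CPM (716 to 1117), and Acp5 stood at 307 CPM, Hebp1 at 132 CPM and Dnase1l3 at 110 CPM. Pla2g2d, Gpnmb, Cst7 and Lrp8 each had 0 UMIs, which allows up to 40.5 CPM (exact upper limit). Under the gate Ass1 was still at 363 CPM in that cluster. In Csf2-/- SILT the 10 such barcodes and the 11 in dendritic clusters were too few for levels. Those 11 carried 29.8% of the UMIs of all Il22ra2-high barcodes of that library, against 21.5% for the 74 of Csf2+/+ SILT, so a sum over all Il22ra2-high barcodes mixes the sources in unequal parts.

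**Figure D3:**
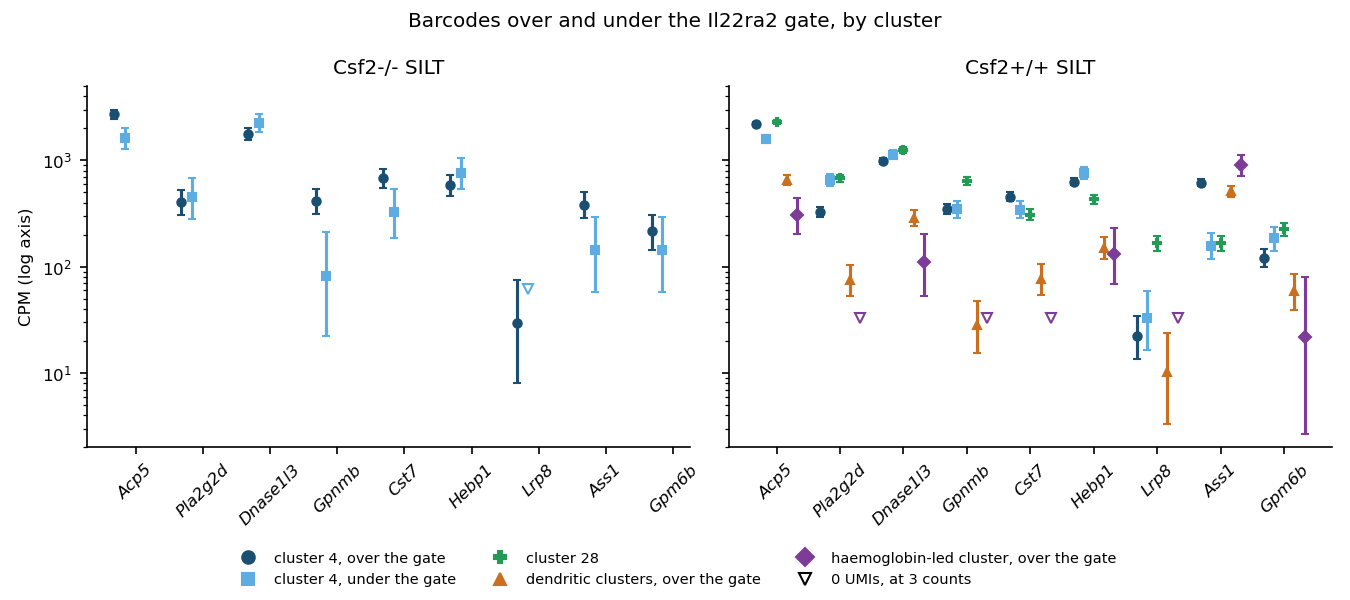
Level of each gene (log axis, CPM) in cluster 4 over and under the Il22ra2 gate and, for Csf2+/+ SILT, in cluster 28 and in Il22ra2-high barcodes of the dendritic and haemoglobin-led clusters; bars are exact 95% Poisson intervals and open triangles mark 0 UMIs, drawn at 3 counts. Ass1 lies higher over than under the gate within cluster 4, and Pla2g2d, Gpnmb, Cst7 and Lrp8 have no UMI in the haemoglobin-led barcodes.

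Within cluster 4, the 9 genes did not all keep to the Il22ra2 gate. In Csf2+/+ SILT, 656 barcodes lay over and 303 under it, and those under it held 1 Il22ra2 UMI in all. Ass1 was at 618 CPM over the gate and 157 CPM under it, a ratio of 3.93 (2.96 to 5.33). Pla2g2d ran the other way, at 327 and 653 CPM with a ratio of 0.501 (0.419 to 0.600), and Gpm6b likewise at 122 and 184 CPM, a ratio of 0.660 (0.478 to 0.917). Acp5 was at 2216 and 1584 CPM, Dnase1l3 at 981 and 1133 CPM, Gpnmb at 350 and 348 CPM, Cst7 at 455 and 345 CPM and Hebp1 at 632 and 759 CPM, all 5 within 1.5-fold. Past 1.5-fold lay 4 of the 9 genes (Lrp8, with 20 and 11 UMIs and a ratio of 0.665, 0.304 to 1.54, is the other), where 36.2% of features did. That share is near the background. Barcodes without Il22ra2 UMIs in this cluster thus still carried Acp5, Dnase1l3, Cst7 and Pla2g2d at levels far over those of macrophages.

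In Csf2-/- SILT the same split had 95 barcodes over and 44 under the gate, and 4 of the 8 genes compared lay past 1.5-fold, all higher over the gate, where 43.9% of features lay past it either way. Ass1 was at 384 and 144 CPM, a ratio of 2.67 (1.21 to 6.97), and Gpnmb at 414 and 82.2 CPM, a ratio of 5.04 (1.86 to 19.1) that rests on 4 UMIs under the gate. Cst7 was at 680 and 329 CPM (2.07, 1.21 to 3.77) and Acp5 at 2705 and 1623 CPM (1.67, 1.30 to 2.15). Pla2g2d, at 407 and 452 CPM, had a ratio of 0.899 (0.539 to 1.55). Ass1 was the gene past 1.5-fold, and with its interval on the higher side, in both genotypes. The intervals for Acp5 and Cst7 also lay on the higher side in both.

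Cluster 28, the deep cluster, differed from cluster 4 for 2 of the 9 genes by at least 2-fold in Csf2+/+ SILT, where 27.5% of features did. Lrp8 stood at 166 CPM in cluster 28 and 25.1 CPM in cluster 4, a ratio of 6.59 (4.46 to 10.0). Ass1 stood at 167 and 495 CPM, a ratio of 0.337 (0.280 to 0.402). Pla2g2d (677 and 414 CPM) and Gpnmb (639 and 350 CPM) leaned towards cluster 28, and Hebp1 (433 and 666 CPM) and Cst7 (307 and 426 CPM) towards cluster 4. The 48 barcodes of cluster 28 thus held 153 of the 184 Lrp8 UMIs of the Il22ra2 clusters in that library.

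Single barcodes often held several of the genes. At least 3 of the 9 were detected in 69.8% (61.0 to 77.7) of the 126 Il22ra2-high barcodes of Csf2-/- SILT and 69.7% (66.5 to 72.8) of the 838 of Csf2+/+ SILT. In macrophages, which were several-fold deeper, the shares were 31.3% and 24.8%, and in endothelial cells 0% and 1.43%. After each barcode was thinned to 500 UMIs, they were 29.4% and 29.1% in Il22ra2-high barcodes, 0.739% and 0.303% in macrophages and 0.353% and 0.329% in dendritic cells. At equal depth all shares were lower, and the ratio of the Il22ra2-high share to the macrophage share was larger. Within the Il22ra2 clusters but under the gate the thinned share was 26.1% of 46 barcodes in Csf2-/- SILT and 30.9% of 324 in Csf2+/+ SILT, about that of the Il22ra2-high barcodes. In Csf2+/+ SILT it was 14.9% of the 74 Il22ra2-high barcodes of dendritic clusters and 0 of the 42 in the haemoglobin-led cluster, which allows up to 8.41% (exact upper limit).

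**Figure D4:**
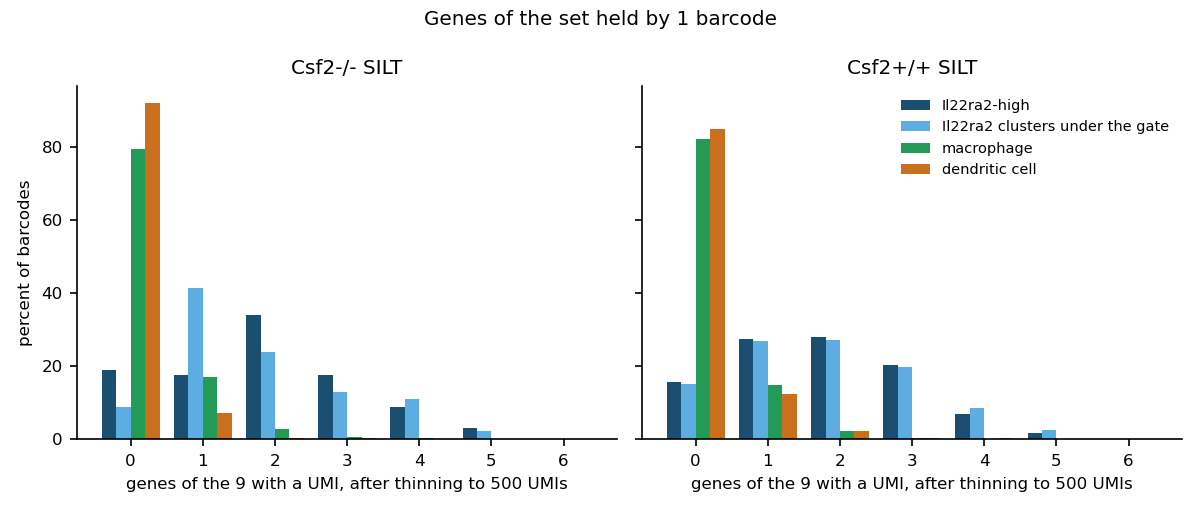
Share of barcodes (percent, bars) by how many of the 9 genes had a UMI after thinning to 500 UMIs, for Il22ra2-high barcodes, Il22ra2 clusters under the gate, macrophages and dendritic cells of Csf2-/- SILT and Csf2+/+ SILT. Il22ra2-high barcodes reach 29.4% and 29.1% with 3 genes or more, while the macrophage shares stay under 1%.

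Gene by gene, thinning left Acp5 in 55.6% of Il22ra2-high barcodes of Csf2-/- SILT and 55.0% of those of Csf2+/+ SILT, Dnase1l3 in 42.9% and 30.3%, Ass1 in 19.8% and 23.2% and Cst7 in 15.9% and 17.8%. Lrp8 was left in 0 and 8 barcodes (0% and 0.955%), at which no difference is detectable. Among the thinned barcodes of the Il22ra2 clusters of Csf2+/+ SILT, Ass1 was found in 10.3% of the 195 with Pla2g2d and 19.7% of the 812 without it. Dnase1l3 was found in 46.2% and 33.7% of the same barcodes. In Csf2-/- SILT, Ass1 was found in 2 of the 26 with Pla2g2d and 16.9% of the 118 without it, too few to read. The share with Ass1 was thus lower, and that with Dnase1l3 higher, among Csf2+/+ barcodes that held Pla2g2d.

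The study compared genotypes to ask what in the SILT depends on CSF2, and here the question is the level of the 9 genes in the barcodes that remain Il22ra2-high without it. Within Il22ra2-high barcodes of SILT, 0 of the 9 genes differed by 1.5-fold between Csf2-/- and Csf2+/+, where 35.7% of 7869 features did in either direction. The ratio of Csf2-/- to Csf2+/+ was 0.981 (0.905 to 1.06) for Acp5, 0.965 (0.790 to 1.17) for Pla2g2d and 1.08 (0.890 to 1.29) for Cst7. Dnase1l3 was higher in Csf2-/- SILT by 1.26-fold (1.13 to 1.41), and Gpnmb (0.790, 0.647 to 0.957), Hebp1 (0.837, 0.701 to 0.995) and Ass1 (0.788, 0.663 to 0.931) were lower. Without the barcode richest in Dnase1l3 of each library, that ratio was 1.16. Lrp8 (0.967, 0.584 to 1.54) and Gpm6b (1.29, 0.969 to 1.70) were too few in counts to tell apart. All 9 genes were thus within 1.5-fold per UMI between the genotypes, while the share of barcodes that carried Il22ra2 was lower in Csf2-/- SILT. The plasma-cell markers, 6 of 6 detected in both libraries, summed to 4123 CPM in the Il22ra2-high barcodes of Csf2-/- SILT and 376 CPM in those of Csf2+/+ SILT. In the plasma cell cluster lay 1 Il22ra2-high barcode of Csf2-/- SILT and 0 of Csf2+/+ SILT. Among Il22ra2-high barcodes of the Il22ra2 clusters these markers summed to 196 and 399 CPM. The monocyte markers summed to 986 CPM (6 of 9 detected, with Chil3, Hp and Vcan at 0) and 465 CPM (9 of 9). Among Il22ra2-high barcodes of the dendritic clusters they summed to 1779 CPM in Csf2-/- SILT and 1214 CPM in Csf2+/+ SILT. Barcodes outside the Il22ra2, dendritic and haemoglobin-led clusters carried 16.6% and 9.40% of the UMIs. The part of these cells in the ratios was not tested.

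Within cluster 4, which avoids the unequal mixture of sources, 2 of the 9 genes lay past 1.5-fold, where 43.2% of features did. Dnase1l3 stood at 1902 CPM in Csf2-/- SILT and 1022 CPM in Csf2+/+ SILT, a ratio of 1.86 (1.65 to 2.1), and at 1.80 without the richest barcode of each library. Ass1 stood at 321 and 495 CPM, a ratio of 0.648 (0.488 to 0.848), and at 0.615 without the richest barcodes. Restricted further to cluster 4 over the gate, Dnase1l3 was at 1781 and 981 CPM (1.82, 1.57 to 2.1), Ass1 at 384 and 618 CPM (0.622, 0.459 to 0.827) and Gpm6b at 214 and 122 CPM (1.76, 1.13 to 2.67). There 46.8% of features lay past 1.5-fold, so the counts of called genes are no result about these 9. Over both Il22ra2 clusters Pla2g2d was 1.53-fold higher in Csf2-/- SILT (1.34 to 1.75), but 123 of its 280 UMIs there came from 1 barcode, and without the richest barcode of each library the ratio was 1.08. The sex makeup of the libraries moved with this contrast, and its part was not tested.

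In macrophages, 5 of the 9 genes had enough counts to compare. Of the other 4, Cst7, Lrp8, Ass1 and Gpm6b, none reached 10 CPM in macrophages of any library. In SILT, 1 of the 5 lay past 1.5-fold between Csf2-/- and Csf2+/+ macrophages, where 9.74% of features did. Gpnmb stood at 21.4 CPM in Csf2-/- SILT and 44.2 CPM in Csf2+/+ SILT, a ratio of 0.483 (0.381 to 0.608), or 0.529 without the richest barcode of each library. In Csf2+/+ SILT, 1 barcode held 77 of the 412 Gpnmb UMIs. Dnase1l3 was 1.46-fold higher in Csf2-/- SILT (1.36 to 1.57) and Hebp1 1.25-fold (1.13 to 1.40). Acp5 (0.995, 0.919 to 1.08) and Pla2g2d (1.05, 0.876 to 1.24) had intervals that span 1. These ratios are over all macrophages, and values within macrophage clusters follow below.

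In LP macrophages all 5 stood past 1.5-fold, all higher in Csf2-/-, where 5.74% of 8384 features were higher by that much. Acp5 stood at 137 CPM in Csf2-/- LP and 50.3 CPM in Csf2+/+ LP, a ratio of 2.72 (2.38 to 3.10). Dnase1l3 was at 185 and 63.6 CPM (2.91, 2.59 to 3.27), and Hebp1 at 93.9 and 49.2 CPM (1.91, 1.64 to 2.22). Gpnmb was at 26.1 and 9.73 CPM (2.69, 1.96 to 3.66) and Pla2g2d at 32.2 and 9.98 CPM (3.23, 2.41 to 4.30). Over all macrophages, the 5 genes that macrophages carry were thus all higher in Csf2-/- LP, on 1 library per genotype. Values within macrophage clusters follow below, where the differences were smaller for 4 of the 5.

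Macrophages fell into 2 clusters whose shares differed between the libraries. Cluster 10, led by Mmp13 and H2-M2, made up 42.6% of macrophages in Csf2-/- SILT, 28.6% in Csf2+/+ SILT, 24.0% in Csf2-/- LP and 8.11% in Csf2+/+ LP. Cluster 1, led by Lyve1, Folr2 and Cd163, made up the rest. Acp5 was 12.1-fold to 24.5-fold higher in cluster 10 than in cluster 1 in the 4 libraries, Dnase1l3 8.96-fold to 23.6-fold, Gpnmb 3.12-fold to 31.0-fold and Hebp1 2.44-fold to 2.99-fold, where 8.85% of features in Csf2-/- SILT, 8.21% in Csf2+/+ SILT, 9.34% in Csf2-/- LP and 9.51% in Csf2+/+ LP were higher by at least 1.5-fold. Pla2g2d did not follow that split, with ratios of 0.847 in Csf2-/- SILT, 1.31 in Csf2+/+ SILT, 2.15 in Csf2-/- LP and 0.685 in Csf2+/+ LP. Acp5, Dnase1l3, Gpnmb and Hebp1 therefore marked 1 of the macrophage clusters in both tissues and both genotypes, and Pla2g2d marked neither in all 4 libraries. Dnase1l3 is itself among the 10 leading genes of cluster 10, although the clustering did not use it.

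**Figure D5:**
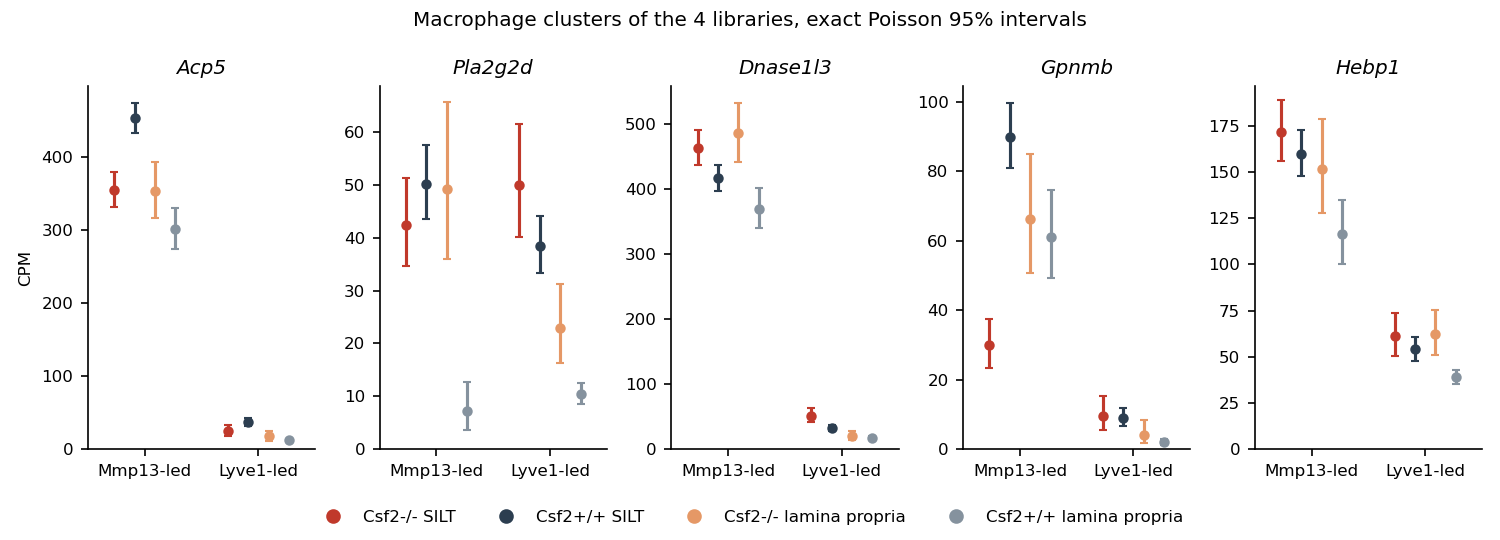
Level (linear axis, CPM, with exact 95% Poisson intervals) of Acp5, Pla2g2d, Dnase1l3, Gpnmb and Hebp1 in macrophage cluster 10 (Mmp13-led) and cluster 1 (Lyve1-led) of the 4 libraries. Acp5, Dnase1l3, Gpnmb and Hebp1 lie higher in cluster 10 in every library, and within a cluster the Csf2-/- and Csf2+/+ points of LP lie closer together than over all macrophages, except for Pla2g2d in cluster 10.

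Within the clusters the LP differences between genotypes were smaller for 4 of the 5 genes. In cluster 10 the ratio of Csf2-/- LP to Csf2+/+ LP was 1.17 (1.02 to 1.35) for Acp5, 1.31 (1.16 to 1.49) for Dnase1l3, 1.09 (0.776 to 1.51) for Gpnmb and 1.30 (1.04 to 1.63) for Hebp1. In cluster 1 it was 1.43 (0.929 to 2.15) for Acp5, 1.19 (0.802 to 1.72) for Dnase1l3 and 1.60 (1.28 to 1.98) for Hebp1. With both clusters given equal weight in each library, Acp5 came to 1.18, Dnase1l3 to 1.31, Gpnmb to 1.12 and Hebp1 to 1.37. Pla2g2d kept its difference: 49.2 and 7.13 CPM in cluster 10 (6.89, 3.52 to 14.8) and 22.9 and 10.4 CPM in cluster 1 (2.20, 1.48 to 3.20), with an equally weighted ratio of 4.11. In cluster 10 those Pla2g2d counts came from 10 barcodes in Csf2-/- LP and 6 in Csf2+/+ LP, and the ratio was 5.18 without the richest barcode of each. The larger share of cluster 10 in Csf2-/- LP moved with the differences in Acp5, Dnase1l3 and Gpnmb, and Pla2g2d differed within each cluster. For Gpnmb in SILT the difference lay in cluster 10, at 29.8 CPM in Csf2-/- SILT and 89.9 CPM in Csf2+/+ SILT, a ratio of 0.332 (0.255 to 0.427), or 0.363 without the richest barcodes. In SILT, equal weights gave Csf2-/- to Csf2+/+ ratios of 0.776 for Acp5, 1.15 for Dnase1l3 and 0.399 for Gpnmb. Hebp1 came to 1.09 and Pla2g2d to 1.04. Acp5 was thus lower in Csf2-/- SILT within each cluster. It stood at 355 CPM against 453 CPM in cluster 10 and at 25.3 CPM against 37.3 CPM in cluster 1.

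Dendritic cells held 4 of the 9 genes at levels that could be compared in SILT, and 3 of them lay past 1.5-fold, all lower in Csf2-/-, where 8.34% of features were lower by that much. Acp5 was at 26.5 CPM in Csf2-/- SILT and 42.8 CPM in Csf2+/+ SILT (0.619, 0.478 to 0.793), Dnase1l3 at 37.6 and 62.4 CPM (0.602, 0.486 to 0.741) and Hebp1 at 6.69 and 14.6 CPM (0.458, 0.271 to 0.741). Ass1 was at 95.6 and 107 CPM (0.893, 0.777 to 1.02). The level in endothelial cells moved the same way, with Acp5 at 2.37 and 9.57 CPM, Hebp1 at 1.97 and 5.71 CPM and Il22ra2 at 0.395 and 5.06 CPM, and the part of free RNA was not tested. With dendritic barcodes chosen by marker UMIs in place of clusters, 0 of the genes lay past 1.5-fold and the Acp5 difference turned to 0.08 higher on the log2 scale. In LP, 0 of 2 genes lay past 1.5-fold, where 14.9% of features did: Acp5 at 11.4 and 8.23 CPM (1.39, 0.916 to 2.1) and Ass1 at 47.7 and 34.9 CPM (1.37, 1.12 to 1.66).

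Between the tissues, SILT libraries as a whole held more of these genes than LP libraries. In Csf2-/- mice all 6 genes with enough counts stood at least 1.5-fold higher in SILT, where 1.7% of 9167 features did. In Csf2+/+ mice all 8 did, where 9.06% of 9579 features did. The genes were chosen from SILT cells, and in whole libraries a larger share of these cells and a higher level per cell cannot be told apart. Acp5 was at 116 CPM in Csf2-/- SILT and 30.9 CPM in Csf2-/- LP (3.75, 3.42 to 4.11), and at 155 CPM in Csf2+/+ SILT and 17.1 CPM in Csf2+/+ LP (9.10, 8.48 to 9.79). Cst7 was at 16.3 CPM in Csf2+/+ SILT and 0.498 CPM in Csf2+/+ LP (32.8, 21.9 to 51.5). Of all Cst7 UMIs, barcodes that were Il22ra2-high or in the Il22ra2 clusters held 82.4% in Csf2-/- SILT and 81.8% in Csf2+/+ SILT. The same barcodes held 41.2% and 50.6% of Acp5 UMIs and 22.3% and 43.5% of Hebp1 UMIs, the rest coming from macrophages, dendritic cells and other classes.

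Macrophages differed between the tissues too. In Csf2+/+ mice all 5 genes compared stood past 1.5-fold higher in SILT macrophages, where 7.24% of features did. Acp5 was 4.34-fold (3.96 to 4.77), Pla2g2d 4.37-fold (3.55 to 5.41), Gpnmb 4.55-fold (3.69 to 5.64), Dnase1l3 3.14-fold (2.88 to 3.42) and Hebp1 2.03-fold (1.83 to 2.26) higher in SILT than in LP. In Csf2-/- mice 2 of the 5 did, Acp5 at 1.59-fold (1.41 to 1.80) and Dnase1l3 at 1.57-fold (1.42 to 1.75), where 2.92% of features did. With both macrophage clusters given equal weight in each library, Acp5 and Dnase1l3 came to 1.02-fold each in Csf2-/- mice. Cluster 10 made up 42.6% of macrophages in Csf2-/- SILT and 24.0% in Csf2-/- LP. In Csf2+/+ mice, equal weights gave 1.56-fold for Acp5, 1.16-fold for Dnase1l3, 1.57-fold for Gpnmb, 1.37-fold for Hebp1 and 5.05-fold for Pla2g2d. There cluster 10 made up 28.6% of SILT macrophages and 8.11% of LP macrophages. Within cluster 10 the ratio of Csf2+/+ SILT to Csf2+/+ LP was 1.5 (1.36 to 1.67) for Acp5 and 1.13 (1.02 to 1.24) for Dnase1l3, but 7.04 (3.85 to 14.3) for Pla2g2d. Within cluster 1 it was 3.04 (2.41 to 3.83) for Acp5, 1.88 (1.52 to 2.34) for Dnase1l3 and 3.69 (2.90 to 4.71) for Pla2g2d. These comparisons share their libraries with the genotype comparisons, so they are not independent of them.

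The other genes of the pathways to which the 9 belong were followed in lists that leave the 9 out. Across all features compared, the median log2 ratio of Il22ra2-high barcodes to macrophages was -0.28 in Csf2-/- SILT and -0.24 in Csf2+/+ SILT, and 23.5% and 18.6% of features were lower by at least 2-fold. The shares higher by that much were 8.49% and 7.79%. They are the background for each list compared with SILT macrophages in this way. Among lysosomal cathepsins and cystatins, the partners of Cst7, 0 were higher and 4 lower of 12 in Csf2-/- SILT, and 1 was higher and 3 lower of 12 in Csf2+/+ SILT. Lgmn (legumain, a lysosomal protease) was at 122 CPM in Il22ra2-high barcodes and 1632 CPM in macrophages of Csf2-/- SILT, and at 136 and 1262 CPM in Csf2+/+ SILT. Ctsz (cathepsin Z) ran the other way, at 1276 and 804 CPM in Csf2-/- SILT and 1260 and 601 CPM in Csf2+/+ SILT. The counts of this list lie near the shares over all features, so no result about the cathepsins as a group is read from them.

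Beside Pla2g2d, the phospholipase list had 1 gene higher and 2 lower of 3 in each genotype. The higher one, Pla2g7 (platelet-activating factor acetylhydrolase), was at 884 CPM in Il22ra2-high barcodes and 418 CPM in macrophages of Csf2-/- SILT, and at 1262 and 484 CPM in Csf2+/+ SILT. Of the other nucleases beside Dnase1l3, 0 were higher and 2 lower of 4 in Csf2-/- SILT and 0 higher and 1 lower of 4 in Csf2+/+ SILT. For arginine metabolism around Ass1, 1 of 4 genes was higher and 0 lower in Csf2-/- SILT, and 0 of 3 moved in Csf2+/+ SILT. Asl, the next enzyme after Ass1 in arginine synthesis, was at 33.4 CPM in Il22ra2-high barcodes and 32.6 CPM in macrophages of Csf2-/- SILT, and at 25.7 and 29.6 CPM in Csf2+/+ SILT. The enzyme that follows Ass1 thus had intervals that span equal levels, 0.558 to 1.75 and 0.645 to 1.15 for its ratios.

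Of the partners of Lrp8, 0 were higher and 3 lower of 5 in Csf2-/- SILT, and 1 was higher and 3 lower of 6 in Csf2+/+ SILT. Selenop, which encodes selenoprotein P, a ligand of the receptor, was at 294 CPM in Il22ra2-high barcodes and 3227 CPM in macrophages of Csf2-/- SILT, and at 523 and 4689 CPM in Csf2+/+ SILT. In the haem list around Hebp1, 1 of 9 was higher and 3 lower in Csf2-/- SILT, and 1 of 10 higher and 2 lower in Csf2+/+ SILT. Fth1, the ferritin heavy chain that stores iron, was the higher one, by 2.04-fold and 3.01-fold, and Cd163 and Hmox1, which take up haemoglobin and degrade haem, were among the lower ones.

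The list of lipid-associated and disease-associated phagocyte genes, with which Gpnmb and Cst7 are often grouped, had 1 of 11 higher and 2 lower in each genotype. Fabp5, a fatty-acid-binding protein, was 8.78-fold and 9.21-fold higher in Il22ra2-high barcodes than in macrophages of Csf2-/- and Csf2+/+ SILT. Trem2, a receptor on that list, had ratios of 0.066 (0.030 to 0.126) and 0.072 (0.052 to 0.097). Of the osteoclast-type genes, with which Acp5 is grouped in bone, 0 were higher and 3 lower of 5 in Csf2-/- SILT, and 0 higher and 4 lower of 6 in Csf2+/+ SILT. Tnfrsf11a, the receptor RANK, had ratios of 0.29 (0.162 to 0.486) and 0.25 (0.189 to 0.331). Plp2, the single proteolipid gene compared beside Gpm6b, was within 2-fold in both. Of these 3 lists, Fabp5 was thus the gene that stood high beside the 9.

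In LP macrophages the lipid-associated list moved with the 5 genes. Of its 11 genes compared there, 7 were at least 1.5-fold higher in Csf2-/- than in Csf2+/+, and 0 lower, beside 5.74% of all features. Cd9, a tetraspanin, was at 356 CPM in Csf2-/- LP and 98.1 CPM in Csf2+/+ LP, a ratio of 3.63 (3.33 to 3.96), and Lgals3 (galectin 3) at 1228 and 526 CPM, a ratio of 2.34 (2.24 to 2.44). Within cluster 1, Cd9 kept a ratio of 2.89 (2.42 to 3.44) and Lgals3 one of 2.52 (2.39 to 2.66), and within cluster 10 they had 1.64 (1.48 to 1.82) and 1.31 (1.22 to 1.41). In SILT macrophages 1 of 11 genes of the list was higher and 0 lower, beside 6.41% of features higher: Axl, a receptor for apoptotic cells, was at 230 CPM in Csf2-/- SILT and 127 CPM in Csf2+/+ SILT (1.81, 1.66 to 1.97). The part of these genes in the levels of the 5 was not tested.

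Over 61 sums of a class in a library, each member was set against the mean of the other 8 on a log2(CPM + 1) scale. Pearson's r was 0.85 for Gpnmb, 0.83 for Pla2g2d, 0.82 for Dnase1l3, 0.80 for Cst7, 0.79 for Acp5, 0.72 for Lrp8, 0.68 for Hebp1, 0.43 for Ass1 and 0.35 for Gpm6b. The sums share libraries and differ in depth, so these values describe likeness and carry no test. Ass1 and Gpm6b were the least like the rest. Among genes outside the 9 and Il22ra2, those most like the mean of the 9 were Sec61b (r of 0.82), Slc1a2 (0.82), H2-M2 (0.77), Fth1 (0.76), Svbp (0.75), Gapdh (0.75), Haus8 (0.74), Cdkn2a (0.73), Rogdi (0.73) and Il4i1 (0.73). Sec61b, a subunit of the translocon of the endoplasmic reticulum, was at 4604 CPM in Il22ra2-high barcodes and 341 CPM in macrophages of Csf2-/- SILT, and at 4538 and 365 CPM in Csf2+/+ SILT.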

How the data were processed

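RNA of CD11b-enriched colon cells was measured with droplet 3' libraries (10x Genomics, version 2 chemistry, per the labels' protocols). The authors deposited whole-number UMI counts per gene and barcode. The submitters' processing notes name Cell Ranger 2.1.1 and mm10, while the deposited matrix header names software version 6.0.0; other alignment settings are not given in the sources used here. The 9 genes and the gene lists were chosen with earlier results of these data known. Barcodes kept had 200 genes or more, with mitochondrial UMIs up to 10%; Scrublet calls (10, 136, 7 and 52 in Csf2-/- SILT, Csf2+/+ SILT, Csf2-/- LP and Csf2+/+ LP) were removed. Kept barcodes had median depths of 7184, 5816.5, 8892 and 9961 UMIs in that order. Clusters (scanpy 1.11.5, leidenalg 0.10.2, 2000 variable genes without Il22ra2 and the 9 genes, 30 components, 15 neighbours, resolution 1) were named by at least 3 fixed markers. A cluster stayed unnamed where another class came close in markers or had more of the leading genes. It also did where it was shallow and no marker of its class was among them. Levels are CPM of summed counts per class and library. Features were compared where they reached 10 CPM on 1 side and 10 UMIs together, and the fold counted as a call was 2 between classes and 1.5 between libraries. Intervals are exact (Poisson, Clopper-Pearson, or conditional binomial for ratios; scipy 1.17.1). UMI sums of 1 library are not replicates, and droplets share free RNA. All 9 genes were named in every comparison; genes outside them came from the fixed lists, with 2 to 4 examples a list, and the 10 most alike by Pearson's r. TMM factors came from edgeR 4.0.16 as an alternative scaling. In all, 16 planned and 4 added alternatives were run.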

Additional observations from a re-analysis of the deposited data

Results flagged for a closer look

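Gpnmb differed between genotypes in opposite directions in the macrophages of the 2 tissues. Its log2 ratio of Csf2-/- to Csf2+/+ was -1.05 in SILT macrophages and 1.43 in LP macrophages, on 1 library per group. The difference between the tissues was not tested. In SILT, 1 Csf2+/+ barcode held 77 of 412 Gpnmb UMIs. In LP the share of cluster 10, the macrophage cluster with more Gpnmb, was 24.0% in Csf2-/- and 8.11% in Csf2+/+, and within that cluster the ratio was 1.09 (0.776 to 1.51).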

How the results depend on the processing

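No paired analysis was possible because each group has 1 library. Of 273 alternatives to the 19 counts and shares, 228 stayed within 1.5 times or the counting interval, and 45 moved. Of 1424 alternatives to 85 ratios of single genes, 1086 stayed inside the counting interval, 337 left it and 1 turned: Acp5 in SILT dendritic cells, at 0.080 (log2) with marker gates. Where no cause is named it was not tested. Of the 20 alternatives, 4 were chosen after seeing the data: the Il22ra2 clusters in place of the gate, their Il22ra2-high barcodes alone, cluster 28 counted as macrophages and equal weights for the macrophage clusters. Genes of the 9 past 1.5-fold between Csf2-/- and Csf2+/+ Il22ra2-high barcodes numbered 0. They numbered 2 after thinning to 500 UMIs, 2 by mean CPM over barcodes, 3 in Il22ra2-high barcodes of the Il22ra2 clusters and 3 in all barcodes of those clusters. In SILT macrophages the 1 gene became 4 with a gate of 1000 CPM, 3 with doublets kept, 2 after thinning, 3 with marker gates, 2 at resolution 0.5, 2 at resolution 2, 2 by mean CPM, 5 with no minimum and 3 with cluster 28 counted. In LP macrophages the 5 became 3 after thinning and 2 with equal weights, Pla2g2d of the 5 and Ass1, lower at 0.163. That Ass1 value rests on 1 barcode, which held 31 of the 34 Ass1 UMIs of cluster 10 in Csf2+/+ LP. Without the richest barcode of each library, the Ass1 ratio in cluster 10 was 1.11. In SILT dendritic cells the 3 became 0 with marker gates and 5 by mean CPM; in LP the 0 became 1 with marker gates and 1 with no minimum. Between SILT and LP macrophages the 2 of Csf2-/- became 4 with doublets kept, 1 with filters of 500 genes and 5% mitochondrial UMIs, 6 with marker gates, 4 at resolution 2 and 1 with equal weights, Gpnmb, lower at 0.56. The 5 of Csf2+/+ became 8 with a gate of 1000 CPM, 8 with marker gates and 9 with no minimum. The Il22ra2-high share of Csf2-/- SILT, 5.32%, became 4.35% with 2 UMIs required, 4.24% with at least 500 genes, 4.14% after thinning and 1.67% among barcodes of at least 2000 UMIs. That of Csf2+/+ SILT, 11.1%, became 9.22%, 8.71%, 8.63% and 3.48% in the same order, 9.69% and 12.0% with gates of 1000 and 250 CPM, and 13.3% as the Il22ra2 clusters. The share with 3 of the genes or more, 69.8% in Csf2-/- SILT, became 29.4% after thinning and 87.9% at 2000 UMIs or more. In Csf2+/+ SILT 69.7% became 29.1% and 87.1%, 74.7% with 2 UMIs, 77.7% with at least 500 genes and 74.2% within the Il22ra2 clusters. The shallow Il22ra2-high barcodes, a median of 1341 UMIs in Csf2-/- SILT and 1276 in Csf2+/+ SILT, limit what single barcodes show.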

Other observations

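Lyz1, the lysozyme gene known from Paneth cells, stood at 5486 CPM in Il22ra2-high barcodes and 47.9 CPM in macrophages of Csf2-/- SILT, and at 3553 and 77.7 CPM in Csf2+/+ SILT. Its close copy Lyz2, the myeloid lysozyme, was at 24583 and 11679 CPM in Csf2-/- SILT and 24224 and 9134 CPM in Csf2+/+ SILT, and the split of reads between the copies is uncertain. Of the other phagocyte genes followed for the label, Fcgr3 (an Fc receptor) was lower in Il22ra2-high barcodes, at 91.3 and 617 CPM in Csf2-/- SILT and 128 and 595 CPM in Csf2+/+ SILT, as was Csf1r, the receptor for CSF1, at 512 and 1421 CPM and at 450 and 1201 CPM. Genes of antigen presentation were not lower: Cd74 was at 28510 and 20720 CPM in Csf2-/- SILT and 27578 and 17000 CPM in Csf2+/+ SILT. Spi1, the ETS factor PU.1 of myeloid cells, was at 639 and 409 CPM in Csf2-/- SILT and 606 and 398 CPM in Csf2+/+ SILT.

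In LP macrophages of Csf2-/- mice, beside the 5 genes described, H2-Ab1 (an MHC class II chain) was at 5469 CPM in Csf2-/- LP and 1985 CPM in Csf2+/+ LP, a ratio of 2.75 (2.70 to 2.81). Cd163 was at 353 and 612 CPM, a ratio of 0.576 (0.538 to 0.617). Cd163 is among the leading genes of macrophage cluster 1, and the smaller share of that cluster in Csf2-/- LP moved with it.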
